A study of Mus musculus with 5 samples.

Results

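The genes described are 10 that mark mast cells and basophils: Cpa3, Hdc, Fcer1a, Ms4a2, Mcpt8, Prss34, Il1rl1, Cma1, Tpsab1 and Tpsb2. Every probe set that the platform annotation gave to a single member was used. For 8 of the 10 genes there were 11 such probe sets, out of 45037 on the array. Prss34, a basophil protease gene, and Il1rl1, which encodes the IL-33 receptor, matched no probe set in the annotation table used and were not analysed here.

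RNA came from long-term haematopoietic stem cells (LT-HSCs) of C57BL/6 mice aged 4 weeks and was hybridised to 5 Affymetrix mouse arrays. The 3 Lrf knockout arrays were from Zbtb7a Flox/Flox Mx1-Cre+ mice and the 2 control arrays from Zbtb7a Flox/+ Mx1-Cre+ mice, in which 1 Zbtb7a allele was floxed, so the controls were heterozygous after Cre rather than wild type; Zbtb7a encodes the transcription factor LRF. All animals, controls included, carried Cre under the interferon-responsive Mx1 promoter and were injected 2 times with pIpC (250 µg), a synthetic double-stranded RNA that switches that promoter on, and cells were taken on day 9 counted from the first. The sorted cells carried Sca-1, Kit and CD150 and lacked lineage markers, IL7Ra, Flt3 and CD48. The description of knockout replicate 3 carries 2 animal-style numbers where each other array carries 1. Whether it pools mice is not stated, and the p-values measure the spread between these arrays.

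Mast cells and basophils store mediators in granules and release them when antigen cross-links immunoglobulin E (IgE) on their surface. The high-affinity IgE receptor is built from an alpha chain (Fcer1a), which binds IgE, a beta chain (Ms4a2), which amplifies the signal, and a gamma chain (Fcer1g) that is shared with other Fc receptors. Histidine decarboxylase (Hdc) makes histamine, and the granules hold carboxypeptidase A3 (Cpa3) and serine proteases. In the mouse, Mcpt8 is a protease gene of basophils, whereas the chymase gene Cma1 and the tryptase genes Tpsab1 and Tpsb2 belong to mature tissue mast cells. Hdc and Cpa3 transcripts also occur in mouse haematopoietic progenitors.

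The values are log2 intensities after RMA, which subtracts background, gives the arrays a common distribution and merges the probes of each set into 1 value. All 5 arrays had medians between 6.38 and 6.40. A level of 5.77, below which the dimmest 40% of probe sets lay by their mean over the 5 arrays, is taken as near background. On their brightest probe set, 5 of the 8 measured genes had a mean above it (Cpa3, Hdc, Ms4a2, Mcpt8 and Cma1), and Fcer1a, Tpsab1 and Tpsb2 did not. Knockout replicate 2 stood apart from the rest: its correlation with the other arrays across all probe sets was 0.945 to 0.970, against 0.977 to 0.990 for every other pair. Its closest partner was control replicate 1 (0.970). The difference between 3' and 5' control probe sets reports RNA length, and labelling that favours 3' ends also bears on it. For Actb it was 3.85 on knockout replicate 2 and 4.90 to 5.21 on the others. For Gapdh the shift was smaller, with 4.67 on knockout replicate 2 and 5.06 to 5.17 on the others. Group differences of the gene lists are therefore given with knockout replicate 2 and without it, as are those of most members and of most list genes named. Zbtb7a read 8.72, 8.33 and 9.06 in knockouts and 8.22 and 8.36 in controls on its brightest probe set, but the labels do not give the deleted part, so this checks nothing about the deletion.

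Mcpt8, the basophil protease gene, gave the widest range of the members. It read 6.06, 10.92 and 6.84 in knockout replicates 1, 2 and 3, against 5.76 and 5.80 in the controls. Every knockout array lay above both controls, and knockout replicate 2 lay far above all the others. The log2 difference between knockout and control was 2.16 (SE 1.56; limma adjusted p = 1), with means of 7.94 ± 2.61 (SD, n = 3) and 5.78 ± 0.030 (SD, n = 2), and the exact two-sided permutation p was 0.3, where 0.1 is the smallest possible. Both controls sat at the background level, where the size of a difference is not well measured. Without knockout replicate 2 the difference was 0.67 (SE 0.31; limma adjusted p = 0.953). Knockout replicate 2 was 27.9-fold above the mean of the other 4 arrays and 16.9-fold above the highest of them. By that excess over the mean, Mcpt8 ranked 12 among 12813 genes whose mean over the 5 arrays was above background. That mean includes knockout replicate 2, so a gene can enter through that array. Among all 18193 measured genes Mcpt8 ranked 13.

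For the IgE receptor, Ms4a2, the beta chain, had 2 probe sets. The brighter read 6.33, 9.09 and 6.55 in knockouts, against 6.30 and 6.55 in controls, and the dimmer read 4.94, 5.83 and 4.94, against 5.21 and 4.62. On both, knockout replicate 2 was the highest array, and the remaining knockouts lay within or at the edge of the controls. The difference of the brighter was 0.90 (SE 0.93; limma adjusted p = 1; exact permutation p = 0.7), and without knockout replicate 2 it was 0.013 (SE 0.17). Fcer1a, the IgE-binding alpha chain, read 4.48, 6.39 and 4.48 in knockouts, against 4.61 and 4.74 in controls. Knockout replicate 2 was the one array above the background level, and the other 4 read 4.48 to 4.74. The difference was 0.45 (SE 0.70; limma adjusted p = 1 in a fit without the filter), and it was -0.19 (SE 0.083) without knockout replicate 2, where both sides are below background and give no fold change.

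Cpa3, the carboxypeptidase, read 8.35, 9.31 and 7.84 in knockouts, against 5.94 and 7.44 in controls. All 3 knockout arrays were above both controls, and the lowest array was control replicate 1, near background. The means were 8.50 ± 0.75 (SD, n = 3) and 6.69 ± 1.06 (SD, n = 2), a log2 difference of 1.81 (SE 0.64) or 3.52-fold. The test across all probe sets was not passed (limma unadjusted p = 0.0399, adjusted p = 1), and the exact permutation p of 0.1 is the smallest that 3 against 2 arrays allow. Without knockout replicate 2 the difference was 1.41 (SE 0.59; limma adjusted p = 0.953), with both remaining knockouts still above both controls. As single arrays were left out it ranged between 1.07 (without control replicate 1) and 2.56 (without control replicate 2).

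Hdc, the histamine-forming enzyme, had 2 probe sets. The brighter read 7.81, 12.38 and 9.22 in knockouts, against 11.29 and 9.35 in controls. The dimmer read 6.70, 10.04 and 7.05, against 8.46 and 7.42. Both probe sets put the arrays in the same order: knockout replicate 2, control replicate 1, control replicate 2, knockout replicate 3 and knockout replicate 1. The group difference of the brighter was -0.52 (SE 1.51; limma adjusted p = 1; exact permutation p = 0.8). Without knockout replicate 2 both remaining knockouts lay below both controls on each probe set, with differences of -1.80 (SE 0.88) and -1.07 (SE 0.42), neither of which passed (limma adjusted p = 0.953 for each). Hdc and Cpa3, both granule mediator genes, thus differed from the controls in opposite directions on knockout replicates 1 and 3. Control replicate 1 weighed on both. It was the lowest array for Cpa3 (5.94) and above control replicate 2 for Hdc (11.29 against 9.35, brighter probe set). Knockout replicate 3 lay closer to control replicate 2, at 9.22 against 9.35 for Hdc and 7.84 against 7.44 for Cpa3. A test of the difference between the genes was not made.

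The mature mast cell proteases were dim and nearly flat. Cma1, the chymase, read 6.30, 6.23 and 6.08 in knockouts, against 6.08 and 5.63 in controls, a difference of 0.35 (SE 0.20; limma adjusted p = 1; exact permutation p = 0.2). It ranged between 0.12 without control replicate 2 and 0.58 without control replicate 1, and was 0.34 without knockout replicate 2. The value of knockout replicate 3 equalled that of control replicate 1, so the groups touched. Tpsab1 ranged from 5.35 to 5.70 in knockouts and from 5.44 to 5.58 in controls, and Tpsb2 read 5.68 on all 3 knockout arrays, against 5.73 and 5.24 in controls, on the brighter of its probe sets. Neither tryptase gene was above the background level on any array, and neither was the dimmer Tpsb2 probe set (4.44 to 4.63). C57BL/6 mice are known to carry a defective Tpsab1 allele. In contrast to Mcpt8, knockout replicate 2 exceeded the mean of the other 4 arrays by only 0.21 for Cma1, 0.12 for Tpsab1 and 0.10 for Tpsb2.

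**Figure D1:**
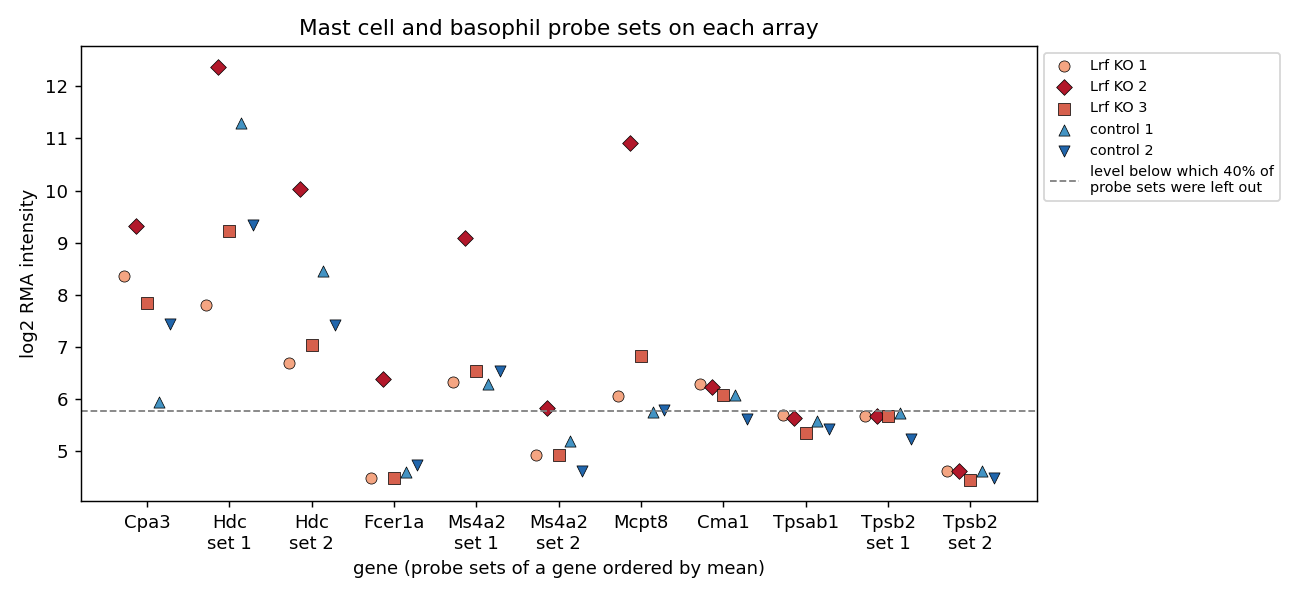
Log2 RMA intensity (vertical axis) of the 11 member probe sets (horizontal axis) on each of the 3 Lrf knockout and 2 control arrays, 1 point per array; the dashed line is the level of 5.77. Knockout replicate 2 (dark red diamonds) is highest for Cpa3, Hdc, Fcer1a, Ms4a2 and Mcpt8, while the points of Cma1, Tpsab1 and Tpsb2 lie close together.

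The promoters of the 5 genes that were highest on knockout replicate 2 are shown because these genes were highest together on that array. The promoter table matched 8 of the 10 members. Each window is the stretch of 250 bases before an annotated start, from RefSeq on GRCm38.p6, read 5′ to 3′ along the gene. That start need not be the outer end of the gene. Capitals mark AGATAA and TGATAA on either strand (TTATCT and TTATCA on the other), letters that GATA factors are known to bind. The windows are Mcpt8 at chr14:56085198-56085447, Cpa3 at chr3:20242182-20242431, Fcer1a at chr1:173227230-173227479, Ms4a2 at chr19:11623720-11623969 and Hdc at chr2:126618679-126618928, all on the minus strand.
Mcpt8: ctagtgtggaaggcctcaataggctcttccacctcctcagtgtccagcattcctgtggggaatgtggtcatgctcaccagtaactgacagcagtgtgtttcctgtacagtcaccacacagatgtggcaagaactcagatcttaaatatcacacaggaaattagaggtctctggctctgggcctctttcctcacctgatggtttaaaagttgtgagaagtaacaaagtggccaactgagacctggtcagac
Cpa3: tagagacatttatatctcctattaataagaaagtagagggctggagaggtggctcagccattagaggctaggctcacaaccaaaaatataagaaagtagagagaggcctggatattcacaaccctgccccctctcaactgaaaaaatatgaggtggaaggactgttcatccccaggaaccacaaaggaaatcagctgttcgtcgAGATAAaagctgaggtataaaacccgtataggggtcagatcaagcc
Fcer1a: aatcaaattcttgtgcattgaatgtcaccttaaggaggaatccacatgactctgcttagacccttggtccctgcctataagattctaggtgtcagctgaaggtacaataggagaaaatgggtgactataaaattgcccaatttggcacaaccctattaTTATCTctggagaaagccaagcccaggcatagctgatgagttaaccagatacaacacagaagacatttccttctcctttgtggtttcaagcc
Ms4a2: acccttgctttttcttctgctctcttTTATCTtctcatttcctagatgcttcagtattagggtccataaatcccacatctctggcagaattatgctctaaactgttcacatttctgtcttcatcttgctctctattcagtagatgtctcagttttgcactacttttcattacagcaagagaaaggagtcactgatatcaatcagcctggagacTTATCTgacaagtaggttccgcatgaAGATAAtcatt
Hdc: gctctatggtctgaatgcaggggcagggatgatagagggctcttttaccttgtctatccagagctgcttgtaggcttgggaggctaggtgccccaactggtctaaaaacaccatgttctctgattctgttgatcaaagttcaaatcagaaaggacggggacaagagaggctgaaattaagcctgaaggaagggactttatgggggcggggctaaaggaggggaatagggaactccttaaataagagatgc

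Of these 5 windows, 3 hold the letters: Cpa3 has AGATAA at 46 bases before the start, Fcer1a has TTATCT at 92, and Ms4a2 has TTATCT at 224 and 37 and AGATAA at 11. Across 32851 mouse promoter windows of the same length, 16.6% hold any of these letters. The windows of Mcpt8 and Hdc hold none, and Mcpt8 was the member with the widest range. Both windows lie wholly inside the annotated gene, which runs to 56085499 for Mcpt8 and to 126624025 for Hdc. Those of Cpa3, Fcer1a and Ms4a2 reach beyond the outer end of the gene, so the windows are not like stretches. Among the other matched members, Prss34 holds AGATAA at 31 bases before the start, and both annotated windows of Il1rl1 hold a match, while that of Cma1 holds none. A match is a description of letters only.

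Across the members, 0 of the 6 probe sets tested passed the limma test over all probe sets, where 0% of 27022 did. At an unadjusted p under 0.05 it was 1 of the 6 (Cpa3), against 1.13% of all probe sets tested. Knockout arrays lay above both controls for 2 of the 11 probe sets, those of Cpa3 and Mcpt8, against 3.61% of all 45037 probe sets. They lay below both controls for 0 of 11, against 3.52%. The median difference over the 8 measured genes was 0.40, and the median of all 18193 measured genes was -0.0082. Of the 8, 7 were positive, among them Fcer1a, Tpsab1 and Tpsb2, whose means were near background and whose signs carry little. The share of all measured genes with a positive difference was not counted. Without knockout replicate 2 the members' median was 0.10. In that comparison 2 of the 11 probe sets were higher in both remaining knockouts than in both controls, against 11.0% of all probe sets. Counting both directions it was 5 of 11, against 21.1%, the 3 lower ones being both of Hdc and that of Fcer1a, the last below background.

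**Figure D2:**
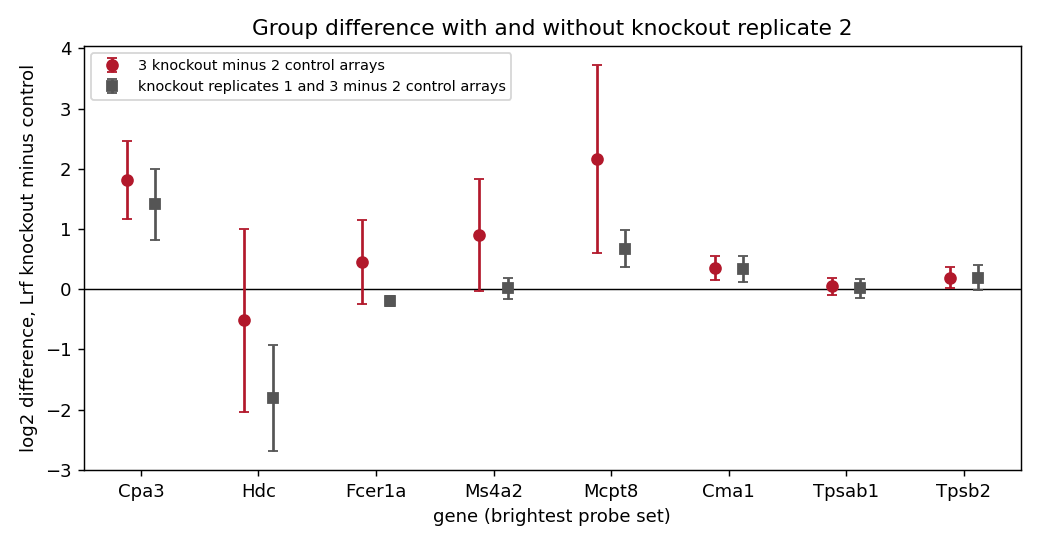
Log2 difference between Lrf knockout and control (vertical axis) for the brightest probe set of each of the 8 measured genes; circles are 3 knockout minus 2 control arrays and squares leave out knockout replicate 2, and bars are limma standard errors. Fcer1a, Tpsab1 and Tpsb2 come from the fit without the filter. Leaving out that array brings Mcpt8 to 0.67 and Ms4a2 to 0.013, while Cpa3 stays at 1.41 and Hdc moves to -1.80.

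Knockout replicate 2 alone was then set beside the other 4 arrays, as a description of 1 library that was singled out with its stand-apart position known. It was the highest array for 8 of the 11 member probe sets, against 27.8% of all probe sets. The 8 include both Hdc probe sets, both of Ms4a2 and the dimmer one of Tpsb2, which is below background with a gap of 0.0098. By gene, on the brightest probe set, knockout replicate 2 was highest for 5 of 8. It lay at least 1 log2 unit above the highest of the others for 5 of 11 probe sets, against 2.44%. These 5 probe sets belong to Mcpt8, Ms4a2, Fcer1a and Hdc, with gaps of 4.08, 2.54, 1.65 and, for the Hdc pair, 1.08 and 1.58. Cpa3 fell just short of that limit at 0.96, its next highest array being knockout replicate 1. The median excess over the mean of the other 4 arrays was 1.87 for the 8 measured genes and 0.00 for all measured genes. On the linear scale, the summed intensity of the 8 genes was 8693 on knockout replicate 2, 903 and 1216 on knockout replicates 1 and 3, and 2898 and 1130 on the controls. Hdc made up most of the sum on knockout replicate 2 and on control replicate 1, where it read 12.38 and 11.29.

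Genes that act with the members were counted from lists, and 0 of them passed the limma test. At an unadjusted p under 0.05 there were 1 of 3 ligands tested (Kitl) and 3 of 15 genes of other blood cells tested (Cd163, C1qa and C1qc), against 1.13% of all probe sets tested. Without knockout replicate 2, 0 list genes passed in limma (0% of all probe sets did), and 10 of 101 tested were at an unadjusted p under 0.05, against 3.91% of all probe sets; 0 of the 6 member probe sets were. Among 11 measured genes of IgE receptor signalling, 5 were higher and 6 lower in knockouts by their mean, with a median difference of -0.018. It was 4 higher and 7 lower without knockout replicate 2, with a median of -0.14. Fcer1g, the gamma chain, read 7.53, 11.03 and 8.76 in knockouts, against 10.42 and 9.02 in controls, a difference of -0.61 (SE 1.14), or -1.58 (SE 0.69) without knockout replicate 2. This is the order of arrays seen for Hdc. Syk, the kinase that the receptor recruits, read 10.52, 12.24 and 10.68 in knockouts, against 11.14 and 11.19 in controls, and was likewise highest on knockout replicate 2. Its difference was -0.018 (SE 0.58) with that array and -0.57 (SE 0.13) without it. Plcg2, a phospholipase downstream of it, differed by -0.26 (SE 0.24), and by -0.44 without knockout replicate 2. Btk, a kinase that acts on Plcg2, differed by 0.082 (SE 0.23), and by 0.092 without it. The shared gamma chain was above background on all 5 arrays, which the IgE-binding alpha chain was on knockout replicate 2 alone.

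Transcription factors of the mast cell and basophil lineages had 4 of 11 positive differences and a median of -0.077. With knockout replicate 2 left out, 6 of 11 were positive and the median was 0.028. Gata2, which these lineages need and which stem cells also express, read 10.84, 9.16 and 10.88 in knockouts, against 10.64 and 11.15 in controls (difference -0.60, SE 0.62), and was lowest on knockout replicate 2. Without that array its difference was -0.032 (SE 0.22). Mitf, the mast cell factor, differed by -0.29 (SE 0.20), and by -0.33 without that array. Ikzf1, a lymphoid and myeloid regulator, differed by 0.16 (SE 0.21), and by 0.035 without it. Bhlhe40 and Spi1 had the largest excess on knockout replicate 2, at 1.95 and 1.34 over the mean of the other arrays. Spi1 encodes PU.1, a myeloid regulator. Their group differences were -0.11 and -0.14 with that array and -0.91 and -0.70 without it. In all, 4 of the 11 factors were highest on knockout replicate 2, near the 27.8% of all probe sets, and 4 were lowest there. The share of all probe sets lowest on that array was not counted.

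Further granule and mediator genes had 7 of 19 positive differences and a median of -0.040, and 7 of the 19 had a mean near background. Only 4 of 19 were positive without knockout replicate 2, and the median was -0.13. Serglycin (Srgn), the proteoglycan that holds granule proteases, read 13.58, 14.04 and 13.45 in knockouts, against 13.03 and 13.74 in controls (difference 0.30, or 0.13 without that array). Alox5, which makes leukotrienes, read 7.28, 11.16 and 8.30 in knockouts, against 10.20 and 8.44 in controls, again in the order seen for Hdc, and its partner Alox5ap exceeded the mean of the other arrays by 1.85 on knockout replicate 2. The group difference of Alox5 was -0.40 with that array and -1.53 without it, and that of Alox5ap -0.036 and -0.78. Rab27b, a granule docking GTPase, went the other way, with 5.30 on knockout replicate 2 and 7.83 to 8.79 elsewhere, and its group difference was -1.14 with that array and -0.18 without it. Prss29, a tryptase-like protease gene, differed by 0.27 (SE 0.39), and by -0.037 without that array.

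Receptors of mast cells and basophils had 9 of 17 positive differences and a median of 0.014. Knockout replicate 2 was the highest array for 11 of the 17, against 27.8% of all probe sets, and the lowest for 2. For 6 of the 17 it lay at least 1 log2 unit above all other arrays, against 2.44% of all probe sets. In the 4 other arrays, leaving out knockout replicate 2, 5 of 17 were positive and the median was -0.095. Kit, the stem cell factor receptor, on which mast cells and the sort both depend, read 11.34, 9.60 and 11.48 in knockouts, against 11.12 and 11.82 in controls, and was lowest on knockout replicate 2 (difference -0.66, SE 0.67). Without that array its difference was -0.060 (SE 0.29). Csf2rb, the shared beta chain of the IL-3 receptor, read 11.65 on knockout replicate 2 and 8.97 to 10.43 elsewhere, and its group difference was 0.014 with that array and -0.85 without it. Il7r encodes IL7Ra, which the sort excluded and through which basophils respond to TSLP. It read 9.35, 10.50 and 7.44 in knockouts, against 6.21 and 7.30 in controls (difference 2.34, SE 0.98; limma adjusted p = 1), and the difference was 1.64 (SE 0.81) without knockout replicate 2. The prostaglandin receptor gene Ptger3 differed by -1.40 (SE 0.83), and by -0.63 without it. Among 9 ligands and cytokines, 7 were positive, the median was 0.11, and 6 were near background. Again 7 were positive without knockout replicate 2, and the median was 0.096. Kitl, the ligand of Kit, read 6.12, 6.01 and 7.07 in knockouts, against 7.72 and 7.63 in controls (difference -1.28, SE 0.37; limma adjusted p = 1), and the difference was -1.08 (SE 0.37) without knockout replicate 2. Il4 differed by 0.42 (SE 0.18), and by 0.54 without that array, whereas Tslp differed by -0.24 (SE 0.67) with it and by 0.27 without it. Il6 and Il33 were below background on every array.

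Other cell types and cell states moved with the members on knockout replicate 2. Eosinophils share their origin with basophils in part, and 6 of 7 measured eosinophil genes were highest there, 5 of them by at least 1 log2 unit. Over all probe sets these shares were 27.8% and 2.44%. The group difference was positive for 6 of 7, with a median of 0.88, but for 2 of 7 without that array, with a median of -0.14. The granule gene Prg2 read 6.44, 12.51 and 8.96 in knockouts, against 7.43 and 9.06 in controls, and Epx, eosinophil peroxidase, read 5.34, 11.45 and 8.52, against 6.67 and 8.44. Their group differences were 1.06 and 0.88 with knockout replicate 2 and -0.55 and -0.62 without it. Prg3 exceeded the highest other array by 2.86, Siglecf by 2.16 and Alox15 by 3.60. Their group differences were 0.40, -0.074 and -0.14 without knockout replicate 2. The summed intensity of the eosinophil list was 10722 on knockout replicate 2, 334 and 1215 on the other knockouts, and 533 and 1156 on the controls. All 8 measured granulocyte-monocyte progenitor genes were highest there too, with a median of 11.24 against 8.88 to 10.49 elsewhere and a summed intensity of 37713 against 11055 to 19037. Elane read 11.18 there and 9.04 to 9.68 elsewhere, and Ctsg 12.12 and 10.09 to 11.03. Between the groups 5 of the 8 were positive, with a median of 0.14. None (0 of 8) were positive without knockout replicate 2, and the median was -0.36. Mpo, myeloperoxidase, differed by 0.075 (SE 0.45) with that array and by -0.30 without it, Igsf6 by -0.49 (SE 1.30) and -1.46, and Fcnb by -0.29 (SE 0.998) and -1.06.

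Stem cell genes ran the opposite way, with 14 of 14 measured genes lowest on knockout replicate 2 and 13 of 14 negative between the groups (median -0.75). How many of all probe sets were lowest on that array was not counted. Without that array 8 of 14 were negative, with a median of -0.046. Their median was 7.42 there and 8.86 to 9.82 elsewhere, and their summed intensity was 3259, against 12356 to 24188. Slamf1, which encodes the sorted marker CD150, read 6.60 on that array and 8.06 to 9.16 on the others, Hlf read 8.48 and 10.25 to 11.65, and Hoxa9 9.65 and 11.54 to 12.55. Their group differences were -0.86, -1.20 and -0.85 with knockout replicate 2 and -0.23, -0.56 and -0.071 without it. Immediate early genes, which respond to stimuli and to cell handling, had 13 of 13 members at least 1 log2 unit above all other arrays, with a median of 11.40 against 7.33 to 7.74 and a summed intensity of 48508 against 2594 to 3736. All 13 were positive between the groups (median 1.01), but 4 of 13 without that array (median -0.20). Of genes of other blood cells, 6 of 16 were positive between the groups (median -0.33). Without knockout replicate 2 it was 3 of 16 (median -0.32). On that array 10 of 16 were highest, against 27.8% of all probe sets. Klrd1 (9.55 against 4.57 to 6.22) and Cd79a (8.98 against 6.11 to 6.65) were among them. S100a8, the brightest, read 15.11 there and 13.51 to 15.09 elsewhere. The list's median there was 8.73, against 8.16 to 10.11 elsewhere. Its summed intensity was 91387, against 25112 to 93982. The macrophage genes Cd163, C1qa and C1qc were lower in 2 knockouts, replicates 1 and 2, than elsewhere, and in every knockout than in both controls. It was not tested whether mast cells, basophils or eosinophils in the sorted cells had a part in the members' values on knockout replicate 2. The part of RNA length was not tested either. In these bulk samples more cells of a type cannot be told apart from more RNA per cell, nor fewer cells from less RNA per cell.

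**Figure D3:**
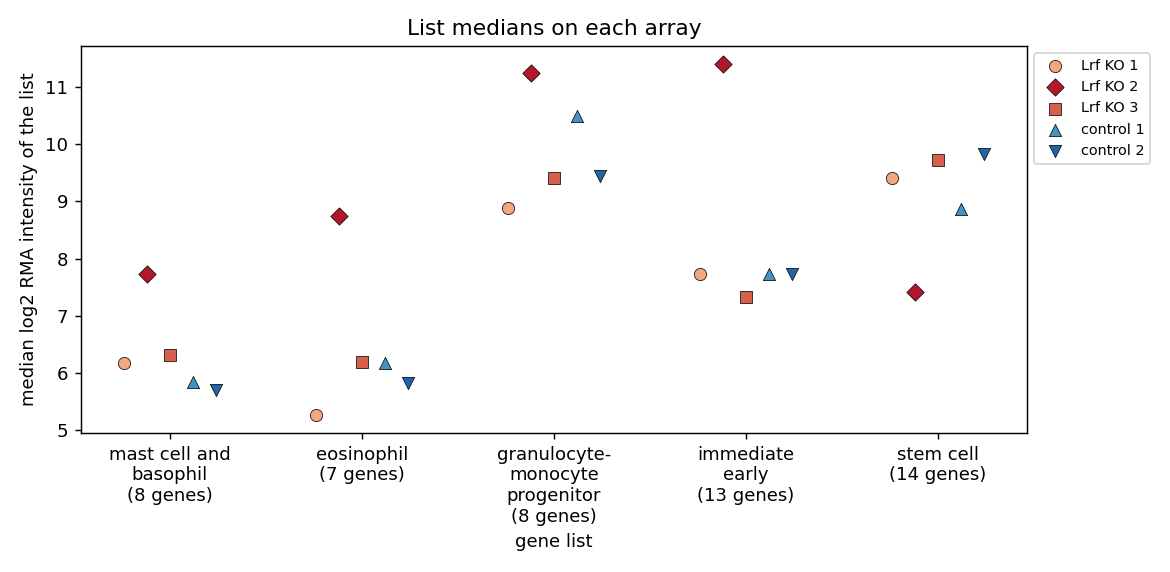
Median log2 RMA intensity (vertical axis) of 5 gene lists on each array, 1 point per array, with the number of measured genes under each list. On knockout replicate 2 (dark red diamonds) the medians of the mast cell and basophil, eosinophil, progenitor and immediate early lists are the highest of the 5 arrays, and the stem cell median of 7.42 is the lowest.

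The genes whose pattern over the 5 arrays was nearest to Cpa3, by the Euclidean distance of values centred on their own mean, were Met, Socs3, Stx3, Enpep and Clec10a, at distances of 0.39 to 0.97 log2 units. Met, a receptor tyrosine kinase gene, read 8.44, 9.44 and 8.25 in knockouts, against 6.46 and 7.85 in controls. The genes nearest to Hdc were Lgals3, Mcemp1, Sgms2, Trem3 and Hp, at distances of 0.25 to 0.37. Lgals3, which encodes galectin 3, read 9.06, 13.41 and 10.14 in knockouts, against 12.26 and 10.39 in controls. Both patterns peak on knockout replicate 2 and part at control replicate 1, which is the lowest array for Cpa3 and its neighbours and the next highest for Hdc and its neighbours. With 5 arrays, such a ranking over 12813 genes is a description. For scale, the 5 other genes with the largest gap between knockout replicate 2 and the highest of the remaining arrays were Cxcl2 (6.84), Fos (6.82), Hspa1a (5.93), Klf4 (5.63) and Fn1 (5.27), each a wider gap than the 4.08 of Mcpt8.

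**Figure D4:**
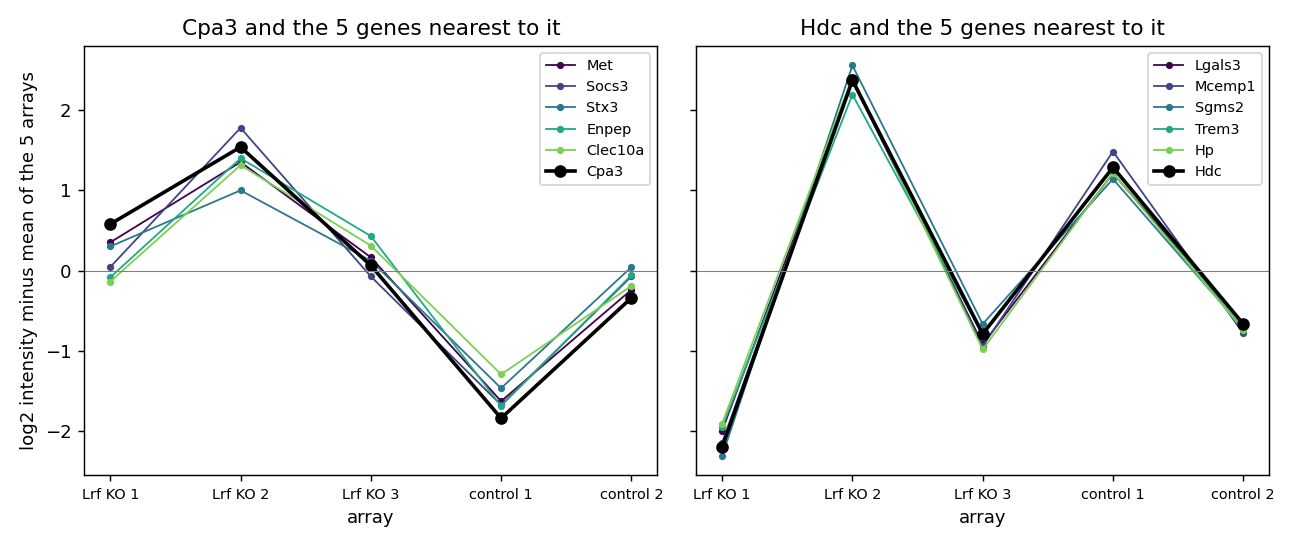
Log2 RMA intensity minus the mean of the 5 arrays (vertical axis) on each array (horizontal axis) for Cpa3 and Hdc (thick black lines) and the 5 genes nearest to each (thin lines). Cpa3 and its neighbours are lowest on control replicate 1, while Hdc and its neighbours are high on control replicate 1 and lowest on knockout replicate 1.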

How the data were processed

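The deposited table holds log2 intensities, 1 value per probe set and array, from RMA as run by the authors with the program Affymetrix Expression Console. This is per the submitters' processing notes, with no version given in the sources used here. Biotin-labelled cRNA was made by repeated in vitro transcription, per the labels' protocols, a procedure known to favour 3' ends. Of 45101 probe sets, 64 controls were left out. The annotation gave 34945 of the rest 1 symbol, 932 several and 9160 none. The dimmest 40% by mean were left out of the test, and knockout was compared with control on 27022 probe sets in limma 3.58.1 under R 4.3.3 (lmFit, eBayes, two-sided, Benjamini-Hochberg, threshold 0.05), checked on simulated data. Members below the limit were read from a fit without the filter. Each gene is represented by its brightest probe set. Single values also had exact permutation tests (10 splits, scipy 1.17.1). Figures used matplotlib 3.10.9. The number of arrays limits precision.

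The members, lists, tests and the rule for named genes were chosen with earlier results of these data known. The rule takes all members, per list the 3 smallest p, the brightest and the 2 with the largest excess on knockout replicate 2, and the 5 nearest patterns. Lists covered IgE receptor signalling, transcription factors, granule genes, receptors, ligands, eosinophil, granulocyte-monocyte progenitor, stem cell, immediate early and other blood cell genes. Medians over members used all measured members. Alternatives were other filters, a trend and robust prior, median centring, cyclic loess, averaging all probe sets of a gene, array weights, a block for replicate number, and dropping each array in turn. List values without knockout replicate 2 were added after seeing the data.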

Additional observations from a re-analysis of the deposited data

How the results depend on the processing

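The number of member probe sets past the limma threshold was 0 under every alternative run. It was also 0 over all probe sets in each of them, so this count is not particular to the members. The count of member probe sets higher in every knockout than in both controls was 2, and ranged between 2 and 5 as single arrays were left out; it was 4 without knockout replicate 3, 5 without control replicate 1, and 1 with the dimmest 60% left out, a filter that removes Mcpt8. The median excess of knockout replicate 2 was 2.66 over the members above the 40% limit, an alternative added after seeing the data, and 2.44 with the dimmest 60% left out, filters that remove the flat tryptase genes, Fcer1a and, for the second, also Ms4a2, Mcpt8 and Cma1. It was 1.63 to 2.01 as other arrays were left out. The members' median group difference of 0.40 stayed positive and within the spread between arrays, but was 0.90 over members above the 40% limit (added after seeing the data), 0.65 with the dimmest 60% left out, 0.16 with array weights and between 0.10 and 0.62 without single arrays. Directions changed for genes that had passed no test: Hdc ranged between -1.80 and 0.48 without single arrays and was 0.46 without control replicate 1, Fcer1a between -0.19 and 0.76, Tpsab1 between -0.024 and 0.16, and Tpsb2 between -0.054 and 0.44; with array weights Fcer1a was -0.095 and Ms4a2 -0.0075. The other 85 single-gene values kept their direction. With the replicate block the members' median was 0.59 and 0 probe sets passed; the groups share replicates 1 and 2 by number only, and same-numbered arrays had deviations from their group means that correlated at -0.54 and -0.57. Probe sets near background limit the sizes given for Fcer1a, Tpsab1, Tpsb2 and Mcpt8.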
